A study of Mus musculus with 4 samples.

Results

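The 10 genes described here encode matricellular proteins: the tenascins Tnc, Tnn and Tnxb, periostin (Postn) and its relative Tgfbi, the thrombospondins Thbs1, Thbs2, Thbs4 and Comp, and Sparc. They were chosen by symbol, with earlier results of these data known, and all 10 were found among the 23107 genes of the deposited tables. Of these, 9 passed the filter on low values and 1, Tnxb, was listed at 0 in every library.

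Matricellular proteins are secreted into the extracellular matrix, where they bind collagens, integrins and growth factors, and most of them regulate how cells attach and how fibres are assembled rather than forming the fibres themselves. The dental follicle is the connective tissue sac of an unerupted tooth, and its cells give rise to periodontal ligament fibroblasts, cementoblasts and alveolar bone osteoblasts. Periostin is best known from the periodontal ligament and periosteum, where it takes part in collagen cross-linking, and tenascins are typical of tendon, ligament, periosteum and remodelling mesenchyme.

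The libraries came from tdTomato+ cells sorted from mouse mandibular molar dental follicles at postnatal day 8, after tamoxifen at postnatal day 3, and the labels call them PTHrP+ cells. The control group, cHet, had the genotype Ptch1(+/-) and the other group, cKO, had Ptch1(-/-). Each group held 2 libraries, which keep the names of the deposited columns (cHet_0 and cHet_1, cKO_0 and cKO_1). All 4 libraries thus carried at least 1 lost Ptch1 allele, the tdTomato label and tamoxifen, and the Cre driver and the kind of Ptch1 allele are not given in the sources used here. Ptch1 encodes the receptor that holds hedgehog signalling in check, so the comparison asks how its loss in these cells goes with matricellular transcripts. No source says that the libraries came from separate animals, so p-values may in part reflect technical spread only.

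Levels are given as scaled counts, which are gene counts that the authors scaled by library in a way the sources used here do not state, and as FPKM, which is also divided by transcript length. The scaled totals ran from 69361760 to 71228342 per library. The hedgehog target Hhip stood at 62357 and 60651 in cHet against 175453 and 160516 in cKO, and Gli1 at 4132 and 3350 against 6388 and 6955. Ptch1 itself stood at 12867 and 5438 against 22420 and 23341, but a gene-level value does not check the deletion of part of the gene. The FPKM belonging to a given scaled count split the libraries across the genotypes: relative to cHet_0, the median over 6895 genes was 0.996 in cKO_0, 0.565 in cHet_1 and 0.608 in cKO_1. Comparisons were therefore also made within each of these pairs, a split that was seen only in the data. Dental epithelium markers took 0.834 and 2.11% of the scaled counts in cHet and 1.40 and 3.92% in cKO, which overlapped. Within each pair their share was higher in cKO. Of these 11 genes, 6 were higher in value in cKO and 5 lower. The groups did not overlap for 1, Epcam, which was lower in cKO, against 14.2% of all genes. Odontoblast markers took 0.190 and 0.196% against 0.0300 and 0.0635%. Xist, the transcript of the inactive X chromosome, was at 103 in cHet_1 and at 4319 to 6489 in the other 3 libraries, while the Y-linked Ddx3y was present in all 4, from 1971 to 8313.

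Between the genotypes, Tnn and Postn lay lower in both cKO libraries on both scales, Tgfbi, Thbs1, Thbs2 and Sparc did so in scaled counts alone, and on that scale the groups overlapped for Tnc, Thbs4 and Comp. In a limma fit of log2(scaled count + 3) over 14297 genes, 0 members passed an adjusted p of 0.05 in either direction, and over all genes the share that passed was 0%, with a lowest adjusted p of 0.913. At an unadjusted p under 0.05, 2 of the 9 tested members lay lower in cKO (Tnn and Postn), against 1.49% of all genes lower and 1.54% higher. With 2 libraries against 2, an exact two-sided permutation test cannot go below 0.333.

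Of the 9 tested members, 7 had a log2 fold change (cKO minus cHet) below 0, against 43.7% of all genes. The 2 above 0 were Tnc and Comp. Both cKO libraries lay below both cHet libraries for 6 members (Tnn, Postn, Tgfbi, Thbs1, Thbs2 and Sparc), against 14.2% of all genes. Both lay above for 0 members, against 18.0%. In scaled counts and FPKM alike, both cKO libraries lay lower for 2 members, Tnn and Postn, against 6.87%. The members' median log2 fold change was -0.43 and that of all genes tested 0.12. In sorted bulk samples, fewer cells of a kind and less RNA per cell cannot be told apart.

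**Figure D1:**
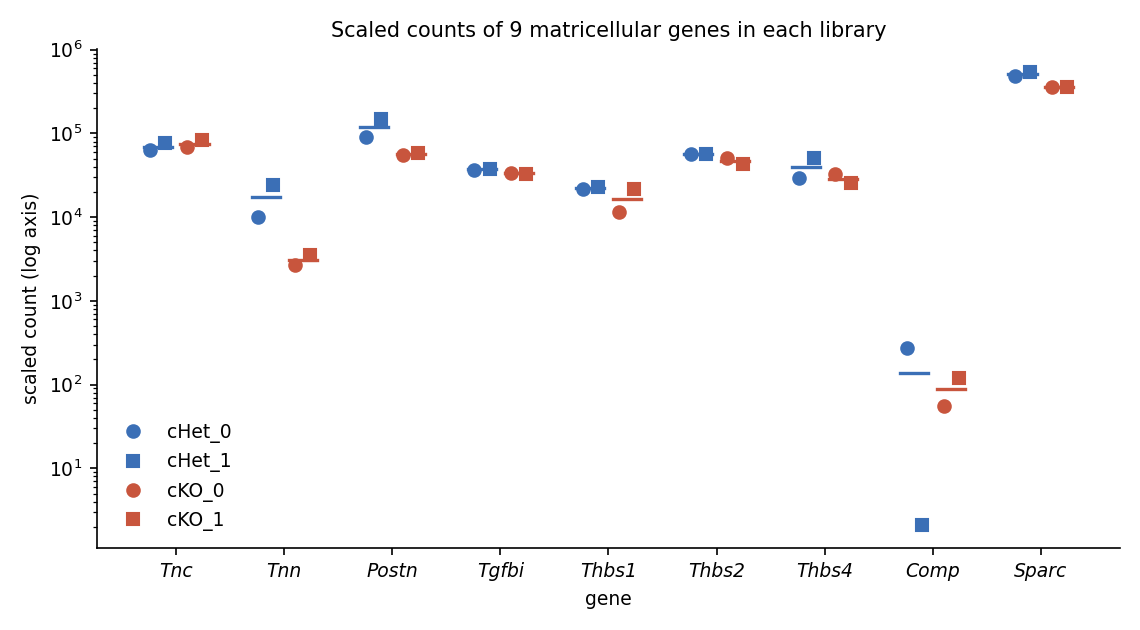
Scaled counts (log axis) of the 9 members with a value above 0, by gene, with 1 point per library (circles for cHet_0 and cKO_0, squares for cHet_1 and cKO_1) and a bar at each group's mean of 2 libraries. Tnn shows the widest gap between the groups among the genes above 1000, Tnc shows none, and Comp lies far below the rest with cHet_1 at 2.09.

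The members with the lowest p values, Tnn and Postn, and Tnc, whose groups overlapped, are shown with the 250 bases before their transcription start, from RefSeq on build GRCm38.p6, so that their core promoters can be set side by side. Capitals mark every match, on either strand, to TATAAA (the TATA box), CCAAT (read as ATTGG on the other strand), TGANTCA (an AP-1 site) or TGGGTGGTC (a GLI-binding core), a set of motifs chosen with the values known.
Tnn, chr1:160153576-160153825, minus strand: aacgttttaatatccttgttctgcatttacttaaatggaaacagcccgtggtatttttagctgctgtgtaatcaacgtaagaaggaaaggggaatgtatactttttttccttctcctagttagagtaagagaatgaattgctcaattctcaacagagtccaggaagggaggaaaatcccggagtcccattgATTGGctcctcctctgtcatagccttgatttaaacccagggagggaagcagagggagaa
Postn, chr3:54360857-54361106, plus strand: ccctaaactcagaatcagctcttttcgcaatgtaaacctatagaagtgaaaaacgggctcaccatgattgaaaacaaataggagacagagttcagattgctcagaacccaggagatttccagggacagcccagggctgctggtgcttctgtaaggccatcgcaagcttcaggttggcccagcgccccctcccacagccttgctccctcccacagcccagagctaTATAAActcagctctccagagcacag
Tnc, chr4:64047016-64047265, minus strand: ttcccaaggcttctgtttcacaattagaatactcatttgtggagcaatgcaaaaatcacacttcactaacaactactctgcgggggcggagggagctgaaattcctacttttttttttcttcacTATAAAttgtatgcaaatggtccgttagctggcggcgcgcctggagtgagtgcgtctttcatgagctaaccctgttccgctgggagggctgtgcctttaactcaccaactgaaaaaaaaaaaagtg
In Postn a TATAAA begins 26 bases before this start, while a second listed start further upstream (GC content 40.4%) has none in its 250 bases. In Tnc the same letters begin 126 bases before this start and 205 before a second listed start. Nearer to that second start, outside the window shown, stand the letters tatataag, which differ from TATAAA and were not counted. TATAAA occurs in 12.4% of all 32851 promoters of that length in the table. Tnn has no TATAAA in this window and 1 CCAAT match, which begins 59 bases before its start, and CCAAT occurs in 33.8% of all promoters. Of the 10 promoter entries for 8 members (Comp and Thbs1 have none), 4 held TATAAA and 2 held CCAAT. The 4 include 2 overlapping entries of Tnc that share the same TATAAA, beside those of Postn and Thbs2. Only that of Tnxb, 1 of the 10, held TGANTCA, which occurs in 6.75% of all promoters. TGGGTGGTC was found in 0 of the 10 and occurs in 0.225% of all promoters. The E-box CANNTG was in 6 of the 10 entries and 66.2% of all promoters, and the SMAD palindrome GTCTAGAC in 0 and 0.167%; these were searched but are not in capitals. GC content was 42% for Tnn, 52% for Postn and 44.8% for Tnc, against a median of 52.4%. A match describes the letters only and is neither a binding site nor a cause.

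Tenascins are large oligomeric glycoproteins that modulate cell adhesion. Tnn encodes tenascin-W (tenascin-N), a tenascin typical of periosteum, bone and tooth-associated mesenchyme. Its gene lies at chr1:160085029-160153580 on the minus strand of mm10 (ENSMUSG00000026725.17). Its scaled counts were 10118 in cHet_0, 24448 in cHet_1, 2676 in cKO_0 and 3549 in cKO_1. Both cKO libraries lay well below both cHet libraries, and the cHet libraries differed from each other by more than the cKO libraries did. In FPKM they were 23.8, 40.5, 6.30 and 6.23, in the same order of libraries, with the same separation. The group means were 17283 ± 10133 and 3113 ± 617 scaled counts (SD, n = 2 each). The log2 fold change was -2.35 (SE 0.44, 95% interval -3.37 to -1.33), a 5.10-fold lower level in cKO. Its unadjusted limma p was 0.000698 and its adjusted p 0.913, so it did not pass. Within the library pairs the log2 difference was -1.92 between cKO_0 and cHet_0 and -2.78 between cKO_1 and cHet_1. In FPKM these were -1.90 and -2.68, so that the gap was present in both pairs and on both scales.

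Leaving out 1 library turned the call for Tnn. In limma fits of 3 libraries, where the lone library is assumed to vary as the other group does, Tnn was at -2.99 without cHet_0 (adjusted p = 0.0123), at -2.15 without cKO_0 (adjusted p = 0.00256) and at -2.55 without cKO_1 (adjusted p = 2.01e-05). Without cHet_1 it was at -1.71 and did not pass. The share of all genes that passed on the lower side was 0.546% without cHet_0, 0.0350% without cKO_0, 0.224% without cKO_1 and 0% without cHet_1. With all 4 libraries kept, the adjusted p of Tnn was 0.544 or higher over the alternatives run. The library cHet_1 holds both the highest Tnn value and the lowest Xist, and a part of its sex makeup in the Tnn difference was not tested.

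Tnc encodes tenascin-C, the widespread tenascin of embryonic, tendon and wound mesenchyme, and lies at chr4:63959785-64047015 on the minus strand. Its scaled counts were 62851 and 75845 in cHet and 68473 and 82755 in cKO. The groups overlapped, with the higher library of each group in the same pair. The log2 fold change was 0.12 (SE 0.24, 95% interval -0.44 to 0.69, limma adjusted p 0.964). In FPKM the libraries were at 119 and 116 in cHet against 130 and 126 in cKO, where the groups did not overlap. The value turned to -0.011 without cHet_0 and to -0.012 without cKO_1. Within the pairs the difference was 0.12 and 0.13. A non-coding gene on the opposite strand, 8030451A03Rik, overlaps Tnc, and strand use in the counting was not given in the sources used here.

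The proportion of the tenascins to each other differed between the genotypes, a measure formed after the values were seen. In scaled counts, Tnc over Tnn was 6.21 and 3.10 in cHet and 25.6 and 23.3 in cKO. In FPKM, it was 4.99 and 2.88 against 20.7 and 20.2. Both cKO libraries lay above both cHet libraries on both scales. The ratio follows Tnn, since the Tnc groups overlapped in scaled counts.

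Tnxb, which encodes tenascin-X, a collagen-associated tenascin of skin, muscle and tendon sheaths, was listed at 0 in all 4 libraries of both tables, as were 6580 genes in scaled counts. Its gene at chr17:34670535-34719815 overlaps the opposite-strand Cyp21a2-ps and Gm24389, and a 0 listed here does not by itself show that the transcript was absent.

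The genes with profiles most like that of Tnn over the 4 libraries were Zfp385b, a zinc finger gene, Insig1, which encodes a regulator of sterol synthesis, and Wwc1, which encodes the Hippo pathway scaffold KIBRA. Likeness was measured as the Euclidean distance between profiles of log2(scaled count + 3), each centred on its own mean, over 8955 genes with a mean of at least 1000. The distances were 0.0911, 0.309 and 0.411, and 37 genes lay within 1. Zfp385b stood at 2106 and 4852 in cHet against 515 and 681 in cKO. With 4 libraries such likeness is a description.

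Postn encodes periostin, a fasciclin-domain protein of the periodontal ligament and periosteum that binds collagen I and integrins. It lies at chr3:54361109-54391037 on the plus strand. Its scaled counts were 90224 in cHet_0, 149828 in cHet_1, 55112 in cKO_0 and 58964 in cKO_1. The cKO libraries lay close together and below both cHet libraries, of which cHet_1 was the higher. In FPKM the values were 407, 304, 241 and 138 in the same order of libraries. The groups did not overlap in FPKM either, but there cHet_0 was the higher cHet library and the cKO libraries were further apart. Its log2 fold change was -1.03 (SE 0.29, 95% interval -1.70 to -0.36), a 2.04-fold lower level in cKO. Its unadjusted limma p was 0.00776 and its adjusted p 0.913. Within the pairs the log2 difference was -0.71 and -1.35 in scaled counts and -0.76 and -1.13 in FPKM. Without cHet_0 it was -1.39 (limma adjusted p = 0.0189, the only other member to pass in any fit of 3 libraries). Without cHet_1 it was -0.66 and did not pass. With all 4 libraries kept, its adjusted p was 0.876 or higher over the alternatives run in limma.

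The FPKM belonging to a scaled count of Postn lay lower in cHet_1 and cKO_1 than that of any other tested member. Relative to cHet_0 it was 0.449 in cHet_1 and 0.520 in cKO_1, whereas for Thbs4 it was 0.945 and 0.990. Comparisons of Postn between libraries of different pairs therefore depend on the scale, while those within a pair do so less.

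Tgfbi encodes the other member of the periostin family, a collagen-binding fasciclin-domain protein induced by TGF-beta, and lies at chr13:56609523-56639562 on the plus strand. Its scaled counts were 37004 and 37899 in cHet and 33499 and 33065 in cKO. The groups did not overlap, and the libraries within each lay close together. In FPKM they were 195 and 161 against 178 and 144, which overlapped. This gave a log2 fold change of -0.17 (SE 0.22, 95% interval -0.67 to 0.33, limma adjusted p 0.929). The standard error in limma borrows from genes of similar abundance and is here wider than the libraries' own scatter. Postn over Tgfbi, a ratio formed after the values were seen, was 2.44 and 3.95 in cHet and 1.65 and 1.78 in cKO in scaled counts. In FPKM it was 2.09 and 1.89 against 1.35 and 0.958, so that the groups did not overlap on either scale.

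**Figure D2:**
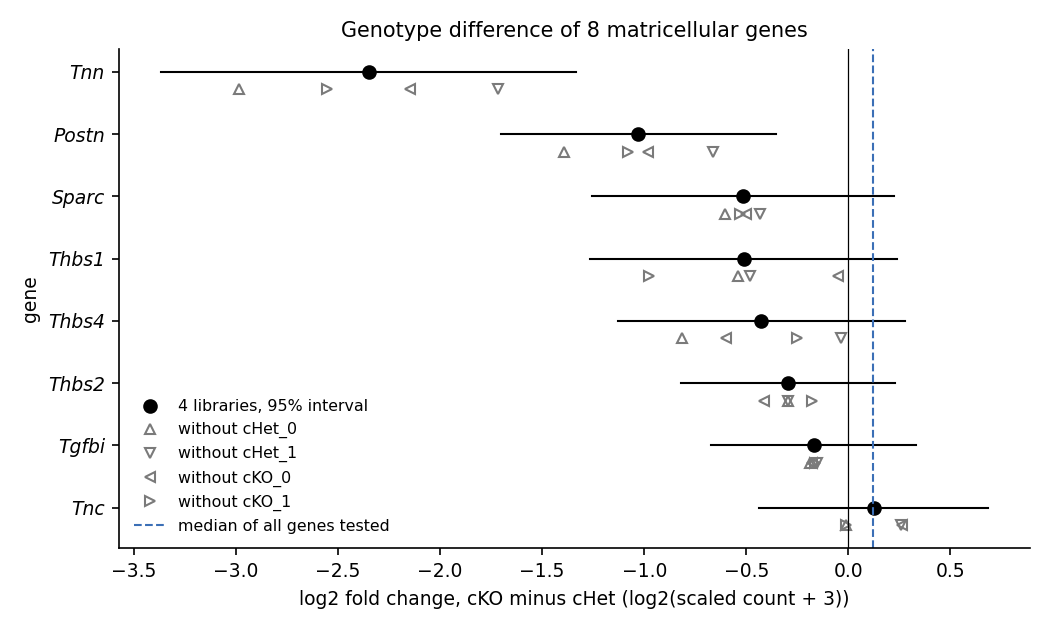
Log2 fold change, cKO minus cHet, of log2(scaled count + 3) for 8 members, with black points and 95% intervals from all 4 libraries and open triangles for the fits that leave out 1 library. Comp is left out because of its wide interval (SE 2.74). The intervals of Tnn and Postn lie below 0, those of the other 6 genes include 0, and the dashed line is the median of all genes, 0.12.

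Thrombospondins are calcium-binding oligomeric glycoproteins. Thbs1 and Thbs2 are trimers that bind CD47 and CD36, and Thbs1 can also activate latent TGF-beta. Thbs1, at chr2:118111876-118127133 on the plus strand, stood at 21988 and 22922 scaled counts in cHet against 11402 and 21711 in cKO. The groups did not overlap, but cKO_1 lay only just below the cHet libraries. In FPKM the values were 52.7 and 30.8 against 27.3 and 33.8, which overlapped. The genotype difference in log2 was -0.51 (SE 0.33, 95% interval -1.26 to 0.24, limma adjusted p 0.913). The value rests on 1 library: without cKO_0 it was -0.05. Within the pairs it was -0.95 and -0.08 in scaled counts, and -0.95 and 0.13 in FPKM. The opposite-strand gene Gm29233 overlaps Thbs1.

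Thbs2, at chr17:14665500-14694235 on the minus strand, stood at 57085 and 57244 scaled counts in cHet against 50595 and 42902 in cKO. Both cKO libraries lay below the nearly equal cHet libraries. In FPKM the values were 134 and 65.3 against 117 and 56.9, where the groups overlapped and the libraries sorted by pair. For Thbs2 the log2 fold change was -0.30 (SE 0.23, 95% interval -0.82 to 0.23, limma adjusted p 0.913). Thbs2 over Thbs1 overlapped between the groups on both scales, with 2.60 and 2.50 in cHet and 4.44 and 1.98 in cKO in scaled counts.

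Thbs4 and Comp belong to the pentameric thrombospondins, which are typical of tendon, ligament and cartilage, and both help to organise collagen fibrils. Thbs4, at chr13:92751590-92794818 on the minus strand, stood at 29481 and 50590 scaled counts in cHet against 32407 and 25459 in cKO. The groups overlapped, since cKO_0 lay above cHet_0, and cHet_1 was the highest. In FPKM the values were 126 and 205 against 140 and 108, in the same order. The log2 fold change was -0.43 (SE 0.31, 95% interval -1.13 to 0.28, limma adjusted p 0.913). Within the pairs it was 0.14 and -0.99, so that the direction differed between them. Without cHet_1 the value was -0.04.

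Comp, cartilage oligomeric matrix protein, at chr8:70373558-70382066 on the plus strand, was low: 271 and 2.09 scaled counts in cHet and 56.0 and 119 in cKO. The cHet libraries held both the highest and the lowest value. In FPKM Comp stood at 1.63 and 0.0170 against 0.345 and 0.998. The fitted log2 fold change of 1.18 (SE 2.74, limma adjusted p 0.971) has the opposite sign to the difference of the group means, 137 ± 190 and 87.6 ± 44.6 scaled counts (SD, n = 2 each). It was -1.69 without cHet_1. No direction can be read from it. Comp is also a chondrocyte gene, and the chondrocyte markers (Sox9, Acan, Col2a1, Col9a1, Matn1 and Matn3) summed to 0.0177 and 0.0103% of the scaled counts in cHet and 0.0102 and 0.0277% in cKO.

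Sparc encodes osteonectin, an acidic collagen- and calcium-binding glycoprotein abundant in bone, dentin and the periodontal ligament, and lies at chr11:55394500-55423183 on the minus strand. Its scaled counts were 482392 and 543177 in cHet and 354506 and 361288 in cKO. Both cKO libraries lay below both cHet libraries, and the cKO libraries lay close together. In FPKM the values were 3116 and 2111 against 2292 and 1452, which overlapped. For Sparc the log2 fold change was -0.52 (SE 0.32, 95% interval -1.25 to 0.22, limma adjusted p 0.913). Within the pairs it was -0.44 and -0.59 in scaled counts and -0.44 and -0.54 in FPKM, so that cKO lay lower in both pairs on both scales.

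Sparc made up 56.5 to 61.0% of the members' summed scaled counts. The members together took 1.14 and 1.35% of the scaled counts in cHet and 0.874 and 0.891% in cKO, a difference to which Sparc and Postn gave most. Set against the collagen gene Col1a1, Sparc did not lie lower in cKO: Sparc over Col1a1, a ratio formed after the values were seen, was 0.131 and 0.161 in cHet and 0.167 and 0.172 in cKO in scaled counts. In FPKM that ratio overlapped, with 0.272 and 0.143 against 0.337 and 0.159. Postn over Col1a1 overlapped as well, at 0.0246 and 0.0444 against 0.0260 and 0.0281 in scaled counts. Tnn over Col1a1 lay lower in both cKO libraries, at 0.00275 and 0.00725 against 0.00126 and 0.00169, and also in FPKM.

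**Figure D3:**
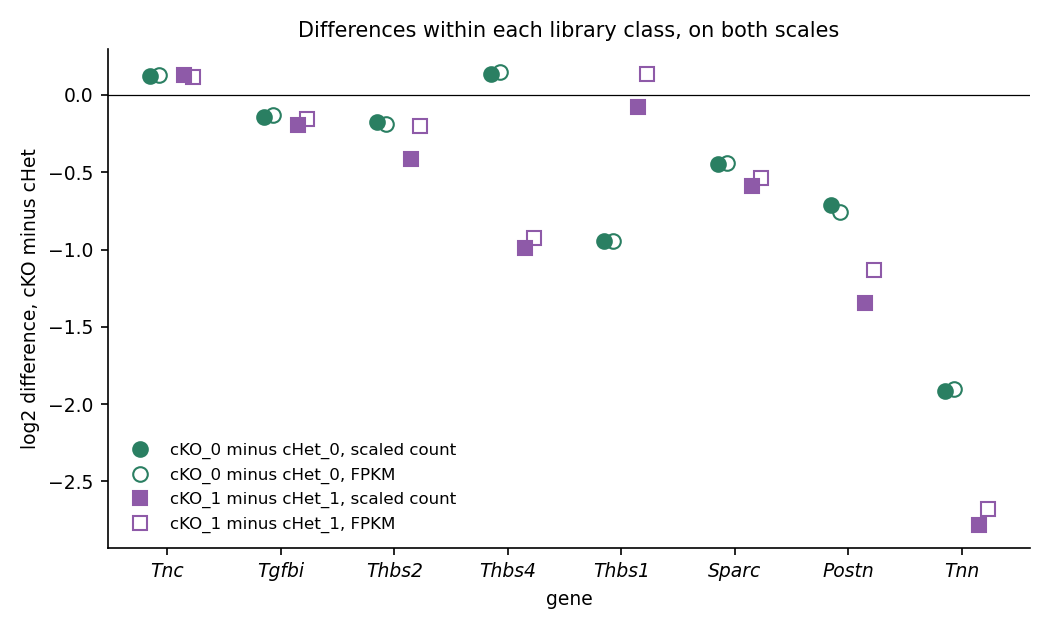
Log2 difference, cKO minus cHet, of 8 members within the pair cKO_0 and cHet_0 (circles) and the pair cKO_1 and cHet_1 (squares), in scaled counts (filled) and FPKM (open), with Comp left out. Tnn, Postn, Sparc, Thbs2 and Tgfbi lie below 0 in both pairs on both scales, Tnc above 0 in both, Thbs4 lies on opposite sides in the pairs, and Thbs1 does so in FPKM.

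Per length, Sparc was the most abundant member and Comp the least abundant with a value above 0. The mean FPKM over 4 libraries was 2243 ± 685 (SD, n = 4) for Sparc, 272 ± 113 for Postn, 170 ± 21.8 for Tgfbi, 145 ± 42.1 for Thbs4 and 123 ± 6.37 for Tnc. It was 93.2 ± 37.9 for Thbs2, 36.1 ± 11.3 for Thbs1, 19.2 ± 16.4 for Tnn and 0.747 ± 0.715 for Comp. In this order neighbours differed beyond their range over libraries only between Sparc and Postn, between Thbs2 and Thbs1, between Tnn and Comp, and between Comp and Tnxb. From Postn to Thbs2 each gene's range overlapped that of the next, although Postn and Tgfbi lay wholly above Tnc and Thbs2. By scaled counts per kilobase of exons, Thbs4 took the place above Postn and the order was otherwise the same. Tnc varied least between libraries relative to its mean FPKM and Comp most.

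**Figure D4:**
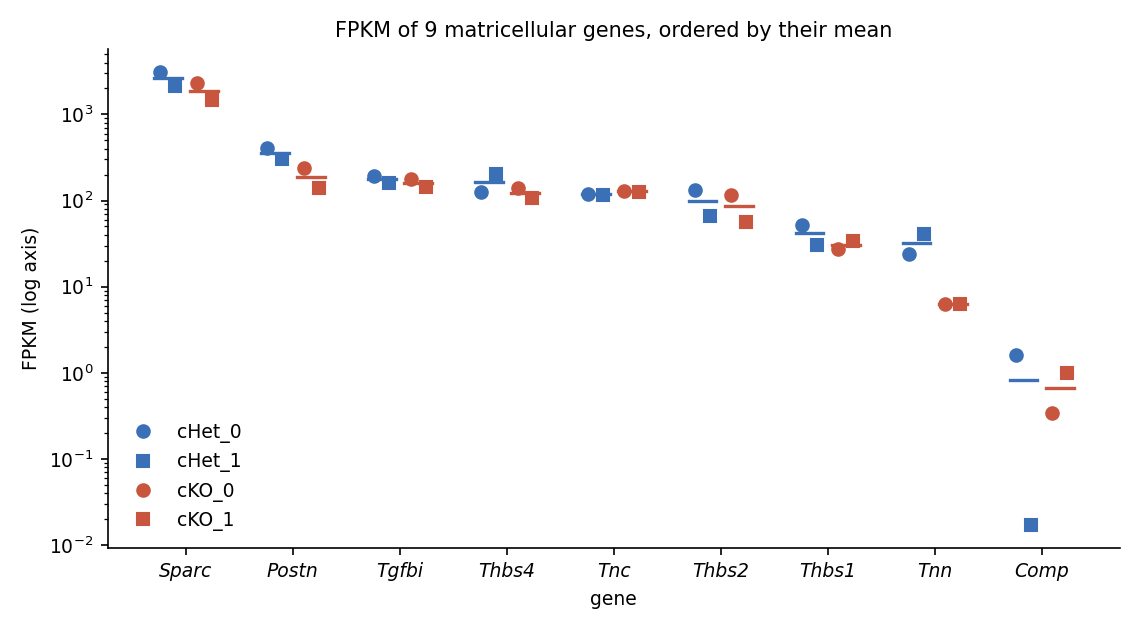
FPKM (log axis) of 9 members in order of their mean, with 1 point per library and a bar at each group's mean of 2 libraries. Sparc stands above all others in every library, 5 members lie between 56.9 and 407, and Tnn spans from 6.23 to 40.5.

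Other matricellular genes, a list of 26 with fibulins, SPOCK and SMOC proteins, CCN proteins and matrilins, were taken beside the members. Of the 22 tested, 0 passed limma's adjusted threshold, 16 had values above 0 and 6 below, where 43.7% of all genes lay below. The median log2 fold change was 0.26 against 0.12 over all genes. Both cKO libraries lay above both cHet libraries for 5 (Ctgf, Fbln1, Fbln5, Fstl1 and Smoc1) and below for 2 (Matn3 and Spock1), against 18.0% and 14.2% of all genes. Ctgf, Fbln1, Fstl1 and Smoc1 were named after their values were seen. Fbln5, which encodes an elastic fibre protein, stood at 21655 and 18350 in cHet against 30322 and 27635 in cKO (0.54 in log2). Spock1, a SPARC-related proteoglycan gene, stood at 4861 and 6226 against 3837 and 1760 (-1.08). The SPARC-related Smoc2 stood at 27559 and 11027 against 37612 and 24898 (0.81) and overlapped. The matrilin gene Matn3 stood at 137 and 1014 against 0 and 15.9.

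The receptors of these proteins, among them integrins, syndecans and CD47, were 28 tested genes of which 0 passed, 9 had values above 0 and 19 below. Their median was -0.15, and the groups did not overlap for 2 on the higher and 10 on the lower side, against 18.0% and 14.2% of all genes. Itgav, which encodes the alpha-v integrin that binds periostin and several other members, stood at 9923 and 13457 in cHet against 7618 and 6556 in cKO (-0.71). Ptprz1, a receptor phosphatase that binds tenascin-C, was at -1.32. The integrin genes Itga2 and Itga4 stood, in turn, at a log2 fold change of -2.13 and at 1518 and 1957 against 755 and 491 scaled counts.

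Matrix partners such as collagens, fibronectin, small proteoglycans and processing enzymes were 19 tested genes, with 0 passing, 5 values above 0, 14 below and a median of -0.35. The groups did not overlap for 4 on the higher side (all genes 18.0%) and 9 on the lower side (14.2%). Col12a1, a fibril-associated collagen gene of ligament, stood at 57294 and 114990 in cHet against 33907 and 31399 in cKO (-1.31). Dcn, which encodes decorin, stood at 54343 and 46719 against 19594 and 23248 (-1.24). Fn1, fibronectin, was at -0.67, and the gelatinase gene Mmp9 stood at 2371 and 1731 against 7325 and 11833, higher in both cKO libraries.

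Known regulators of matricellular genes, of the TGF-beta, SRF and Hippo pathways and among mesenchymal transcription factors, were 21 tested genes with 0 passing, 8 values above 0, 13 below and a median of -0.05. The groups did not overlap for 4 on each side, near the all-gene shares of 18.0% higher and 14.2% lower. Tgfb1 stood at 12359 and 10666 in cHet against 6639 and 8799 in cKO (-0.59), and its receptor gene Tgfbr2 was at -0.57. The SRF cofactor gene Mkl2 was at 1.12 and the early response gene Egr1 at 0.45. Of the tendon and ligament list, 12 of 13 genes in the tables were tested, 0 passed, 3 values lay above 0 and 9 below, and the median was -0.52. Groups stood apart for 2 on the higher and 3 on the lower side, where the all-gene shares are again 18.0% and 14.2%. Lum, which encodes lumican, was at -1.08, the Wnt antagonist gene Sfrp4 at -1.48 and Egr2 at 1.13. Some genes stand in more than 1 of these lists, among them Col12a1, Tgfb1, Fmod, Scx, Mkx and Egr1.

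**Figure D5:**
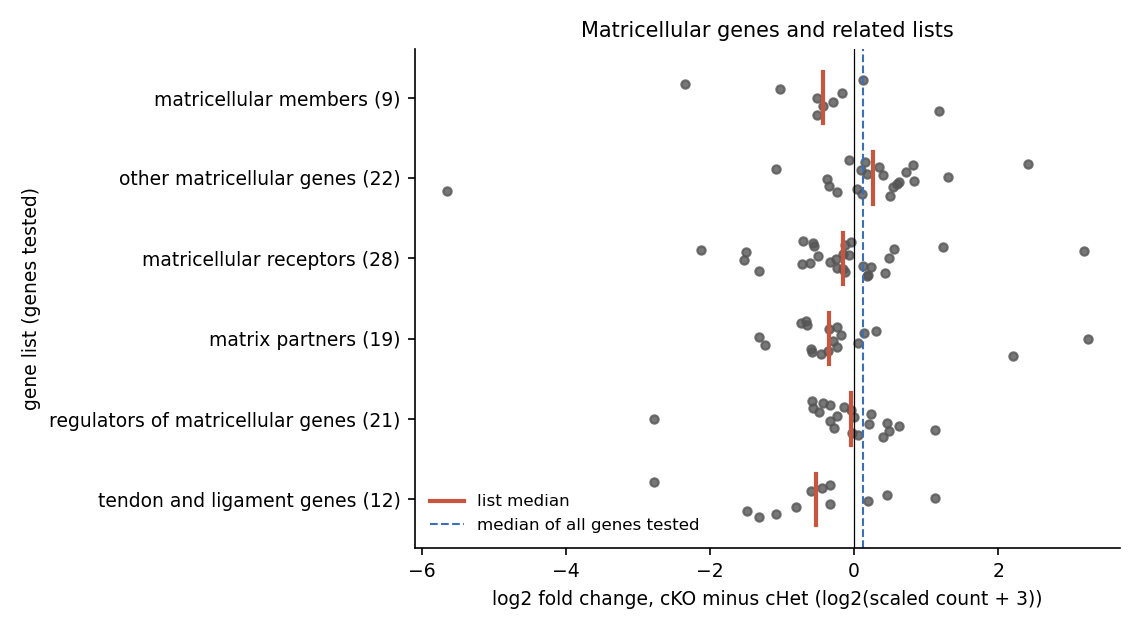
Log2 fold change, cKO minus cHet, of every tested gene (points) in the members' list and 5 related lists, with red bars at the list medians and a dashed line at the median of all genes. The members' median is -0.43 and that of the other matricellular genes 0.26.

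Marker genes of the follicle and of other cell types were summed in each library. The follicle list shares Aspn, Lum, Scx, Sfrp4 and Tnmd with the tendon and ligament list, and Dcn with the matrix partners. The follicle and periodontal ligament markers, 12 genes, summed to 0.501 and 0.572% in cHet and 0.396 and 0.351% in cKO, and 10 of them were at 1000 or more in all libraries. The lower sum in cKO comes from Lum and Dcn: the other 10 genes summed to 0.150 and 0.171% in cHet and 0.211 and 0.188% in cKO. Groups stood apart for 3 genes on the higher side (Bicc1, Foxf1a and Foxf2) and 3 on the lower (Lum, Dcn and Sfrp4). The all-gene shares were 18.0% and 14.2%. Osteoblast and cementoblast markers, 10 genes that include no member, summed to 0.461 and 0.512% against 0.396 and 0.415%, and the groups did not overlap for 4, all lower in cKO, against 14.2% of all genes. Odontoblast markers, which share Dmp1 and Phex with that list, were lower in value in 6 of 6 genes, with a median of -2.01. Groups stood apart in 4, Phex again among them, against the same 14.2%. The part of the cells behind these markers in the values of Tnn, Postn and Sparc was not tested. Endothelial markers summed to 0.00340 and 0.00669% in cHet and 0.00531 and 0.0104% in cKO. Of the 6 tested, 5 lay higher in value in cKO (median 3.34), and the groups stood apart for 3, all higher, against 18.0% of all genes. The endothelial marker Pecam1 stood at 0 and 5.23 against 300 and 1278. Kdr, the 1 marker of this list at 1000 or more in all libraries, overlapped, at 1900 and 4054 against 1944 and 3145. Schwann cell markers summed to 0.00434 and 0.000964% against 0.00979 and 0.0321%. All 6 lay higher in value in cKO (median 2.97), with groups apart for 4, against 18.0% of all genes. Pericyte and smooth muscle markers, 7 genes, summed to 0.136 and 0.125% in cHet and 0.143 and 0.159% in cKO, which did not overlap. Of these, 6 lay higher in value in cKO and 1 lower (median 0.35), and 5 were at 1000 or more in all libraries. Groups stood apart for 1 gene on each side, against 18.0% of all genes higher and 14.2% lower. Macrophage markers, 5 of 6 in the tables, summed to 0.00141 and 0.00938% against 0.00153 and 0.0143%. Of the Schwann cell and macrophage markers, 0 reached 1000 in all libraries. The part of these cells in the members' values was not tested either.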

How the data were processed

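RNA of sorted cells was amplified with SMART-Seq v4 and made into Nextera XT libraries, per the labels' protocols. The submitters' processing notes name build mm10, the aligners TopHat2 (2.0.13) and Bowtie2 (2.2.1), and DESeq2, HTSeq, Cuffdiff, Cufflinks and FastQC, without their roles. The scaled counts, a signal unit deposited by the authors, are gene counts scaled by library, and the method of scaling was not given in the sources used here. The values are not whole multiples of 1 step throughout. The FPKM values were also deposited by the authors. Another 16 per-sample columns in 4 tables match no label and were not used. Columns were given a group only, since they number libraries from 0 and the labels from 1.

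A count test was not possible on scaled values, so log2(scaled count + 3) was modelled in limma (3.58.1, under R 4.3.3, trend option on). Genes needed a scaled count of 10 in 2 libraries, the genotype was the single term, and tests were two-sided, with Benjamini-Hochberg adjustment over 14297 genes and a threshold of 0.05. Fold changes on this scale understate those of low genes. The scripts were tested on simulated data. Alternatives were other pseudocounts, filters, scalings, FPKM, array weights, no trend, each library left out and, added after seeing the data, the library pairs. Counting error was not estimated, since scaled totals are not numbers of reads. The standard errors come from the spread between libraries, with limma's borrowing from other genes. Reads of amplified cDNA are not independent molecules.

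The members and gene lists were chosen with earlier results of these data known. Named were all members, up to 4 genes with the lowest limma p of each related list, Ptch1, Gli1, Hhip, and the 3 genes nearest to the member with the lowest p. Xist, Ddx3y and ratios to Col1a1 were added after their values were seen. Marker genes named singly, among them Epcam, Kdr and Pecam1, fall outside this naming rule. Gene coordinates are GENCODE M21, 1-based. Promoters are from RefSeq (GRCm38.p6).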

Additional observations from a re-analysis of the deposited data

How the results depend on the processing

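The members called numbered 0 in each direction under every alternative that kept all 4 libraries, and their median log2 fold change lay between -0.54 (without cHet_0) and -0.25 (without cKO_1) over all alternatives run. With median-of-ratios scaling the median of all genes moved from 0.12 to 0.02 and the members' median to -0.53. Over all genes, 1 passed on the higher and 1 on the lower side with log2(FPKM + 1), and likewise with log2(FPKM + 0.1). Leaving out each library in turn, the genes that passed ranged from 0 to 1061 on the higher side and from 0 to 78 on the lower side, and the members on the lower side from 0 (without cHet_1) to 2 (without cHet_0); the number of libraries shrinks there and the lone library is assumed to vary as the other group. Leaving out libraries, Tnc ranged from -0.012 (without cKO_1; -0.011 without cHet_0) to 0.26 (without cKO_0) and Comp from -1.69 (without cHet_1) to 4.06 (without cHet_0); the cause was not tested. With the library pair as a term the adjusted p was 0.640 for Tnn and 0.922 for Postn. A count test on whole reads was not run, since the scaled values are not whole multiples of 1 step throughout, and TMM was replaced by upper-quartile scaling, as planned. No paired analysis was possible because the columns carry no replicate number of the labels; the library pairs above are a split seen in the data and not a pairing that the labels give. The interval of Sparc, whose groups did not overlap, includes 0 with limma's standard error, which borrows from other genes.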
